A study of Homo sapiens with 6 samples.

Results

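The genes described here are the enzymes and membrane proteins of the lysosome, together with the MiT/TFE transcription factors TFEB, TFE3 and MITF. They were chosen by name, with earlier results of these data known, as 39 lysosomal genes and 3 factors. This gave 42 of the 58051 genes in the deposited counts. All 42 were found. The lysosomal genes comprise 12 proteases and their relatives, 7 glycosidases of glycoproteins and glycogen, 6 enzymes of glycosaminoglycan breakdown, 9 lipid enzymes and activators, and 5 membrane proteins.

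The cells were A172, an established human glioblastoma line grown in serum-containing medium, infected with lentivirus made from a plasmid encoding either RBFOX1 or GFP. RBFOX1 is an RNA-binding protein that reads the letters TGCATG, with U for T in RNA, and the GFP cells, which went through the same packaging and infection, are the control. The study describes 3 biological replicates of each stable line, with no parental, uninfected cells among the libraries used here, and the comparison asks what forced RBFOX1 expression changes in these cells. After removal of rRNA, stranded libraries were read from both ends, and each held between 7433414 and 23249221 read pairs assigned to genes.

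Lysosomal hydrolases are made in the endoplasmic reticulum, tagged with mannose 6-phosphate in the Golgi and carried to an acidic compartment whose membrane is lined by the glycoproteins LAMP1, LAMP2 and SCARB2. Many of their genes carry a palindromic E-box in the promoter, to which TFEB, TFE3 and MITF bind as dimers, and mTORC1 at the lysosomal surface holds these factors in the cytoplasm when nutrients are plentiful. Inherited loss of single hydrolases causes the lysosomal storage diseases, many of which affect the brain.

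The label check came first. RBFOX1 was counted 4, 0 and 1 times in GFP replicates 1, 2 and 3, and 10276, 16467 and 21451 times in RBFOX1 replicates 1, 2 and 3, so every library matched its label. GFP replicate 1 stood apart from its group in its counts. Its chi-square divided by the degrees of freedom was 8.08 and 8.23 against the other GFP libraries, compared with 1.60 to 2.80 for all other pairs of replicates. The totals of calls, and the members whose call was lost without this library, are given with and without it. Of the macrophage and microglia markers, which would mark cells rich in lysosomes, 5 of 10 (AIF1, C1QA, C1QB, MS4A7 and TYROBP) were at 0 in every library. The 5 that were tested were scarce, and 0 of them had a mean normalised count of at least 50. Of these, 2 were called higher and 1 lower (median log2 fold change 0.84), beside 23.7% higher and 22.9% lower of all genes tested. The whole list summed to 88.8 to 107 normalised counts in GFP and 124 to 136 in RBFOX1 libraries. Of the 9 astroglial and mesenchymal glioblastoma markers, AQP4 was at 0, S100B and SLC1A3 reached at most 3 counts in any library and GFAP averaged 2.68 normalised counts in GFP and 1.58 in RBFOX1 cells. The other 5 were well detected, with VIM (-0.65), CD44 (-0.90) and OLIG2 (-0.50) lower and NES (0.60) and SOX2 (2.53) higher in log2 fold change. The sum of that list, carried by VIM and CD44, was 76163 to 77778 in GFP and 50432 to 51191 in RBFOX1 libraries. The sum of the 5 epithelial markers, carried by KRT8 and KRT18, was 8772 to 9035 in GFP and 32375 to 33716 in RBFOX1 libraries. Their part in the results on lysosomal genes was not tested.

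The E-box is shown because it is the sequence through which the 3 factors reach lysosomal genes. In the RefSeq promoter windows (GRCh38.p14), which run from 250 bases before to 50 after a start site, the letters CACGTG were found in 9 of the 48 windows held for 31 of the members, each window belonging to a different gene, and in 7.26% of all 35116 windows. The longer palindrome TCACGTGA, which contains the first, was found in windows of 5 members and in 0.98% of all windows. Both motifs read the same on either strand. Below are the stretches of these 5 promoters, in the direction of transcription, with each CACGTG in capitals, extended to TCACGTGA where the longer form was present.
MCOLN1, chr19:7522563-7522635, plus strand: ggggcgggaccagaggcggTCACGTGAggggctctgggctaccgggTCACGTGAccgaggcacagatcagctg
GAA, chr17:80101485-80101575, plus strand: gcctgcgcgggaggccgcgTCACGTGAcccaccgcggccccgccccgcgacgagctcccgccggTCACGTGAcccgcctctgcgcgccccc
GALNS, chr16:88856954-88857141, minus strand: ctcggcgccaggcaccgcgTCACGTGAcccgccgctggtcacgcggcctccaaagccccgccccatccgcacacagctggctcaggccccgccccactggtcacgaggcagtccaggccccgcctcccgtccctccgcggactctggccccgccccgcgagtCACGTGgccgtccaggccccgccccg
CTSA, chr20:45891273-45891335, plus strand: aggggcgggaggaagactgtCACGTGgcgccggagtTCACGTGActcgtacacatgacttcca
LAMP1, chr13:113297027-113297250, plus strand: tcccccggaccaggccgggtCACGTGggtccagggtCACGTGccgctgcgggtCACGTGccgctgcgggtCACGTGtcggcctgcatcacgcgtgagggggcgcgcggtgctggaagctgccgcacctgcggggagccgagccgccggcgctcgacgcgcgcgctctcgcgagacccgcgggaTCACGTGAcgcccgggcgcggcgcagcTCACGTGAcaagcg

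Sites of RBFOX1's own motif are shown for the same reason, since they are the letters through which the introduced protein can bind a transcript. In the canonical 3′ UTRs of GENCODE release 44 (GRCh38), read on the sense strand, TGCATG was present in 13 of the 41 members tested (31.7%) and in 36.5% of the 14049 protein-coding genes tested. The sites of MITF, the factor that changed most, of CTSS, the lysosomal gene that changed most, and of LAMP2, whose sites lie so close that each window below holds both, are given with the motif in capitals, in the direction of transcription.
MITF, chr3:69967312-69967341, plus strand: gtgacgcaaatcTGCATGaacagctaattg
CTSS, chr1:150732740-150732769, minus strand: cgagcacggtggTGCATGcctgtaatccca
CTSS, chr1:150730862-150730891, minus strand: tatatattaataTGCATGcttctttataaa
CTSS, chr1:150730188-150730217, minus strand: attaaataaatgTGCATGcttttctcttgc
LAMP2, chrX:120428691-120428720, minus strand: acactttcaaaaTGCATGtttcttgcatgc
LAMP2, chrX:120428680-120428709, minus strand: atgcatgtttctTGCATGctttttactact

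Most lysosomal genes fell in RBFOX1 cells while 2 of the 3 factors rose. Of the 42 members 41 had enough counts to be tested, and 28 were lower, 5 were higher and 8 were not called in edgeR's quasi-likelihood test at an adjusted p under 0.05. The background of such calls was large, as 46.6% of the 20536 genes tested were called, 23.7% higher and 22.9% lower. All 41 members had a mean normalised count of at least 50, and among the 12012 genes above that level 63.8% were called, 30.4% higher and 33.4% lower. The members thus had 68.3% lower calls beside the 33.4% of genes above this mean. They were chosen with earlier results of these data known, so this contrast is a description and not an independent test. Without GFP replicate 1, 27 members were lower and 4 higher.

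The shift was shared by the 3 RBFOX1 libraries. The median log2 fold change of the 41 members (RBFOX1 over GFP) was -0.38, and that of the 39 lysosomal genes, of which 38 were tested, was -0.45, beside 0.005 for all genes tested and -0.02 for those with a mean of at least 50. Taken library by library against the GFP mean, the median of the members was -0.39, -0.34 and -0.40 in RBFOX1 replicates 1, 2 and 3. For 28 members all 3 RBFOX1 libraries lay below all 3 GFP libraries, which was the case for 26.5% of all genes tested. For 7 members all lay above, as for 26.9% of all genes. These shares include scarce genes, and those among genes with a mean of at least 50 were not computed. The sizes were mostly moderate, with 15 members lower by more than 1.5-fold and 3 of these (CTSS, TPP1 and LIPA) by more than 2-fold.

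**Figure D1:**
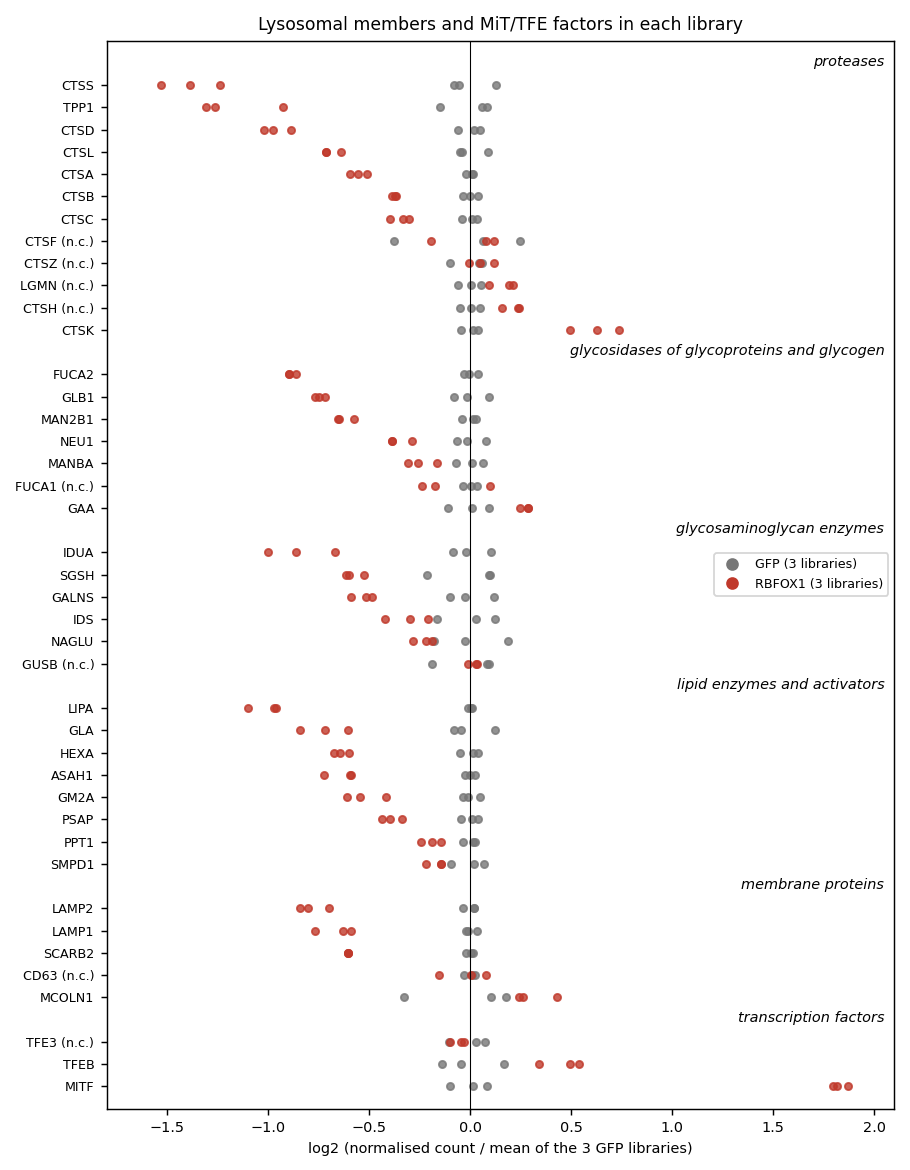
Normalised count of each tested member in each library, as the log2 ratio to the mean of the 3 GFP libraries, by role group; grey points are GFP and red points RBFOX1 libraries, and n.c. marks members not called. The red points of 28 members lie wholly to the left of the grey ones, CTSS farthest at -1.41 in the fitted log2 fold change, and MITF lies farthest to the right at 1.83.

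Together the transcripts of the 39 lysosomal genes made up 0.831 to 0.848% of all gene counts in the GFP libraries and 0.649 to 0.664% in the RBFOX1 libraries, ranges that do not overlap. A pair of genes dominated this sum. PSAP, the precursor of the saposins that present lipids to hydrolases, and CTSB, a cysteine protease, each took 23.8 to 25.0% of it in every library. In bulk RNA, fewer cells expressing a gene and less of its RNA per cell cannot be told apart. Per kilobase of canonical transcript, the most abundant member in GFP cells was PSAP (10500 normalised counts per kb), followed by the tetraspanin CD63 (9100) and CTSB (7690), and in RBFOX1 cells CD63 (8960) stood above PSAP (8010).

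**Figure D2:**
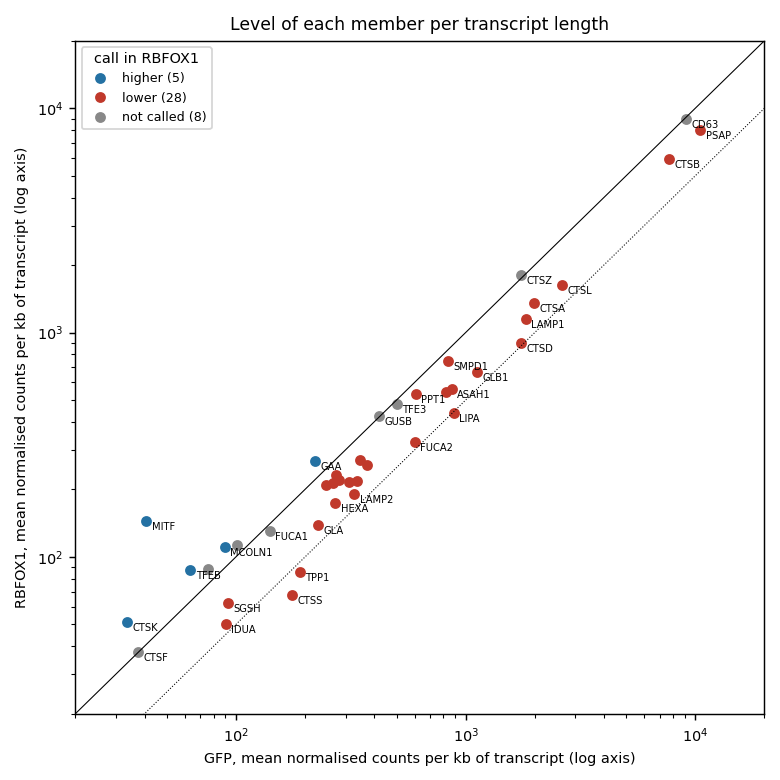
Mean normalised counts per kilobase of canonical transcript in GFP (horizontal) and RBFOX1 cells (vertical), both on log axes, one point per tested member, coloured by call; the solid line marks equal levels and the dotted line a 2-fold lower level in RBFOX1, and 11 crowded points carry no name. Members called lower lie below the solid line over a range from IDUA (90.1 in GFP, 50.4 in RBFOX1) to PSAP (10500 and 8010).

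Of the 3 factors MITF rose most. MITF (chr3:69739456-69968336, plus strand), best known as the master regulator of the melanocyte lineage, had normalised counts of 197, 182 and 207 in the GFP libraries and of 688, 714 and 679 in the RBFOX1 libraries. No RBFOX1 library came near the GFP range, and the log2 fold change was 1.83 ± 0.0755 (SE; edgeR adjusted p = 9.73e-14), the largest among the members in either direction. TFEB (chr6:41683978-41736259, minus strand), the factor most closely tied to lysosome formation, had 134, 166 and 143 in GFP and 187, 214 and 208 in RBFOX1 libraries, again without overlap (0.49 ± 0.106, edgeR adjusted p = 6.83e-04). TFE3 (chrX:49028726-49043410, minus strand) had 1533, 1680 and 1737 in GFP and 1598, 1540 and 1617 in RBFOX1 libraries, so the groups overlapped and no difference was called (-0.05 ± 0.0561, edgeR adjusted p = 0.463).

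TFE3 remained the most abundant of the 3 per transcript length in every library. Its share of the summed levels of the 3 factors per kilobase was 82.4 to 83.5% in GFP and 66.0 to 68.5% in RBFOX1 libraries. The share of MITF was 6.13 to 7.26% in GFP and 19.6 to 21.0% in RBFOX1 libraries, and that of TFEB 9.71 to 11.5% and 11.3 to 13.0%. These are levels of gene-wide transcript, in which the isoforms of MITF are not separated, and they say nothing of the protein or of its place in the cell. The canonical 3′ UTR of MITF held the 1 TGCATG printed above, 2076 bases past the stop codon in a UTR of 3084 bases, and those of TFEB and TFE3 held none.

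**Figure D3:**
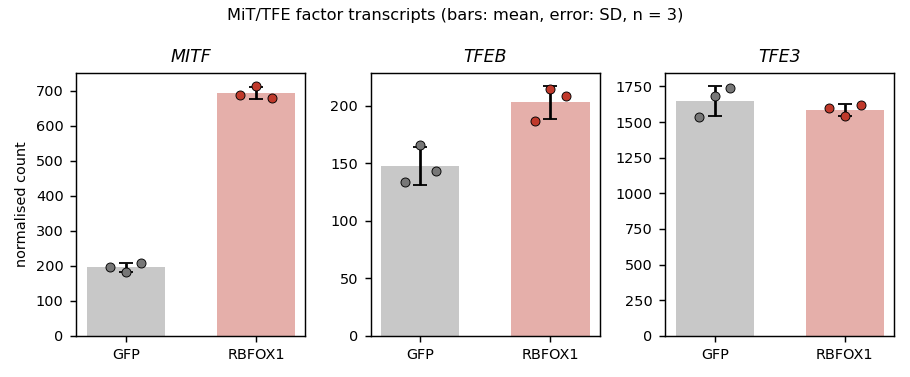
Normalised counts of MITF, TFEB and TFE3 in each library; bars are means, error bars SD over 3 libraries and points the libraries, with a separate vertical axis from 0 for each gene. MITF has a mean of 195 in GFP and 693 in RBFOX1 cells, TFEB 148 and 203, and the TFE3 groups overlap.

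Among the 12 proteases 7 were lower, 1 was higher and 4 were not called, with a median log2 fold change of -0.36. The steepest fall was in CTSS (chr1:150730079-150765957, minus strand), the cathepsin that trims the invariant chain of MHC class II, with normalised counts of 758, 658 and 668 in GFP and 294, 265 and 240 in RBFOX1 libraries (log2 fold change -1.41 ± 0.0849, edgeR adjusted p = 3.06e-11). TPP1 (chr11:6612768-6619448, minus strand), the tripeptidyl peptidase lost in a form of neuronal ceroid lipofuscinosis, had 598, 690 and 702 in GFP and 348, 277 and 268 in RBFOX1 libraries (-1.18 ± 0.0923, edgeR adjusted p = 1.74e-09). The groups of both genes lay well apart, with RBFOX1 means at 37.6% and 44.2% of the GFP means.

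CTSD, the main aspartic protease of the lysosome, had 3698, 3429 and 3623 in GFP and 1937, 1766 and 1823 in RBFOX1 libraries (-0.96 ± 0.052, edgeR adjusted p = 5.54e-12). CTSL, a broad cysteine endopeptidase, fell from a mean of 4355 ± 241 to 2702 ± 78.7 (SD, n = 3; log2 fold change -0.69), and CTSA, which protects the galactosidase GLB1 and the sialidase NEU1 in a shared complex, from 3680 ± 46.1 to 2505 ± 75.4 (-0.55). The smallest called falls were in CTSB (-0.38) and CTSC (-0.35), the latter an activator of serine proteases. Of the exon length of CTSD, 27.3% lies under another gene on the same strand in GENCODE release 44. Among the members described below, this share was 75.9% for IDS, 21.2% for MAN2B1, 12.9% for NAGLU and 9.69% for MANBA. It was at most 5.84% (GLB1) in the other members. The counts were made on an earlier annotation, so how many read pairs of these genes were left out as ambiguous is not known.

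The proteases that did not fall were mostly scarce ones. CTSK, the collagen-degrading cathepsin of bone resorption, was higher, with 55.9, 54.9 and 52.7 in GFP and 90.7, 76.6 and 84.0 in RBFOX1 libraries (0.60 ± 0.144, edgeR adjusted p = 0.00171). CTSH was at 163 ± 5.48 in the control and 189 ± 6.35 under RBFOX1 (SD, n = 3), with no overlap between libraries, but was not called (0.23, edgeR adjusted p = 0.0606). It passed under 2 of the alternatives, library totals in place of TMM (adjusted p = 0.0218) and a minimum of 50 counts (adjusted p = 0.0361). LGMN, the asparagine-specific legumain, was not called either (0.17, edgeR adjusted p = 0.147), nor were CTSF (0.03) and the abundant CTSZ (0.06), whose groups overlapped. CTSZ had means of 2613 ± 157 and 2714 ± 117, so an abundant cathepsin was also among those not called.

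Of the 7 glycosidases of glycoproteins and glycogen 5 were lower, 1 was higher and 1 was not called, with a median of -0.36. FUCA2 (chr6:143494812-143511720, minus strand), a fucosidase, had normalised counts of 1467, 1397 and 1420 in GFP and 784, 767 and 766 in RBFOX1 libraries (-0.89 ± 0.055, edgeR adjusted p = 4.53e-11). The other fucosidase among the members, FUCA1, had 279, 287 and 294 in GFP and 254, 306 and 243 in RBFOX1 libraries. Its overlapping groups were not called different (-0.09 ± 0.0929, edgeR adjusted p = 0.446).

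GLB1, the beta-galactosidase that cleaves GM1 ganglioside and keratan sulfate, had 3014, 2792 and 2673 in GFP and 1660, 1718 and 1679 in RBFOX1 libraries (-0.75 ± 0.0535, edgeR adjusted p = 4.47e-10). Its companions in the same complex, NEU1 (-0.36) and CTSA (-0.55), were also lower. The mannosidases MAN2B1 and MANBA were lower by 0.62 and 0.24 on the log2 scale, from 1068 ± 26.5 to 691 ± 22.0 and from 1094 ± 51.0 to 923 ± 46.7 normalised counts (SD, n = 3). GAA (chr17:80101533-80119881, plus strand), the acid alpha-glucosidase that degrades glycogen and is lost in Pompe disease, was the only glycosidase that rose among the 7, with 885, 767 and 834 in GFP and 1009, 1009 and 982 in RBFOX1 libraries (0.26 ± 0.062, edgeR adjusted p = 0.00148).

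Of the 6 glycosaminoglycan enzymes 5 were lower and GUSB was not called, with a median of -0.42. IDUA (chr4:986997-1004564, plus strand), the alpha-iduronidase lost in Hurler syndrome, had normalised counts of 211, 185 and 193 in GFP and 98.0, 123 and 108 in RBFOX1 libraries (-0.83 ± 0.111, edgeR adjusted p = 3.06e-06), the largest fall of the group. SGSH, a heparan sulfamidase, had 216, 267 and 269 in GFP and 174, 165 and 163 in RBFOX1 libraries (-0.57), and GALNS, which desulfates keratan and chondroitin, fell from 874 ± 66.8 to 605 ± 22.4 (-0.53; SD, n = 3). These 3 groups did not overlap.

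IDS, the iduronate sulfatase, was lower by 0.31 on the log2 scale (2011 ± 198 to 1625 ± 120), but 75.9% of its exon length is shared with other genes on its strand in the same release, so its counts are uncertain. NAGLU, a glucosaminidase of heparan sulfate, had 692, 598 and 537 in GFP and 522, 534 and 500 in RBFOX1 libraries, close neighbours at the edges (-0.25 ± 0.083, edgeR adjusted p = 0.0195). Its call was lost without GFP replicate 1 (-0.13, edgeR adjusted p = 0.159), without RBFOX1 replicate 1 (-0.24, 0.0542), without RBFOX1 replicate 3 (-0.21, 0.104) in DESeq2 (adjusted p = 0.0633) and with library totals in place of TMM (0.063). GUSB, the beta-glucuronidase often used as a reference gene in PCR, had 807, 983 and 975 in GFP and 914, 939 and 943 in RBFOX1 libraries (0.03 ± 0.0709, edgeR adjusted p = 0.785), with GFP replicate 1 below all others.

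The lipid enzymes and activators moved most uniformly, as all 8 that could be tested were lower, with a median of -0.57. LIPA (chr10:89213569-89414557, minus strand), the acid lipase that frees cholesterol and fatty acids from lipoprotein lipids, had normalised counts of 2215, 2191 and 2225 in GFP and 1135, 1126 and 1029 in RBFOX1 libraries (-1.02 ± 0.0537, edgeR adjusted p = 4.1e-12), a mean of 49.5% of the GFP level. GLA, the alpha-galactosidase of globotriaosylceramide that is lost in Fabry disease, had 325, 290 and 283 in GFP and 167, 197 and 182 in RBFOX1 libraries (-0.72 ± 0.0943, edgeR adjusted p = 2.38e-06).

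HEXA, the alpha subunit of the hexosaminidase lost in Tay-Sachs disease, fell from 1296 ± 41.8 to 832 ± 21.3 (-0.64), and GM2A, which lifts GM2 ganglioside to that enzyme, from 1114 ± 32.3 to 775 ± 53.6 (-0.52; SD, n = 3). ASAH1, the acid ceramidase, fell from 2422 ± 43.3 to 1559 ± 81.0 (-0.63). PSAP had 28988, 29610 and 27972 in GFP and 21306, 22828 and 21934 in RBFOX1 libraries (-0.39 ± 0.0474, edgeR adjusted p = 8.91e-07), so the transcript that was most abundant per kilobase in GFP cells was among those lower.

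The smallest falls in this group were in PPT1, a palmitoyl thioesterase (-0.19, edgeR adjusted p = 0.00558), and SMPD1, the acid sphingomyelinase (-0.17, edgeR adjusted p = 0.0147). SMPD1 had 1899, 2055 and 2126 in GFP and 1830, 1835 and 1743 in RBFOX1 libraries, and its call was lost without GFP replicate 3 (-0.13, edgeR adjusted p = 0.0881), without RBFOX1 replicate 3 (-0.14, 0.101) and with library totals in place of TMM (adjusted p = 0.0808). The ninth gene, GALC (chr14:87837820-87993665, minus strand), the galactocerebrosidase lost in Krabbe disease, had 0 counts in each of the 6 libraries, which allows 3 counts, or 1.82 to 5.44 normalised counts depending on the library. It could not be tested in either direction. Such limits cover counting error only.

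Of the 5 membrane proteins 3 were lower, 1 was higher and 1 was not called, with a median of -0.61. LAMP2 (chrX:120426148-120469365, minus strand), which is needed for fusion of autophagosomes and for chaperone-mediated autophagy, had normalised counts of 2170, 2096 and 2174 in GFP and 1197, 1322 and 1229 in RBFOX1 libraries (-0.78 ± 0.0532, edgeR adjusted p = 2.12e-10). Its close relative LAMP1 (chr13:113297239-113323672, plus strand) had 5048, 4893 and 4858 in GFP and 2893, 3273 and 3181 in RBFOX1 libraries (-0.66 ± 0.0514, edgeR adjusted p = 1.54e-09). SCARB2, the receptor that carries glucocerebrosidase to the lysosome, had 3908, 3812 and 3882 in GFP and 2541, 2540 and 2537 in RBFOX1 libraries (-0.61 ± 0.0457, edgeR adjusted p = 9.56e-10). In all 3, the RBFOX1 libraries lay at 58.3 to 65.6% of the GFP mean on average.

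CD63, a tetraspanin of late endosomes and exosomes, did not follow them. It had 9093, 9367 and 9467 in GFP and 8355, 9813 and 9321 in RBFOX1 libraries (-0.02 ± 0.0548, edgeR adjusted p = 0.788), and its share of the summed lysosomal transcripts was 7.63 to 8.06% in GFP and 9.54 to 10.7% in RBFOX1 libraries. MCOLN1 (chr19:7522624-7534009, plus strand), the calcium-releasing channel TRPML1, had 148, 200 and 211 in GFP and 250, 223 and 220 in RBFOX1 libraries (0.33 ± 0.119, edgeR adjusted p = 0.0276). Its groups did not overlap, but GFP replicate 1 was far below the other GFP libraries. Without that library the log2 fold change was 0.16 (edgeR adjusted p = 0.23), and the call was also lost without RBFOX1 replicate 1 (adjusted p = 0.0942), without RBFOX1 replicate 2 (0.0536) and in DESeq2 (0.0875).

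These E-box letters were found in members of both directions. Among the 9 members with CACGTG in the promoter window, 5 were lower (CTSA, CTSD, GALNS, LAMP1 and NEU1), 2 were higher (GAA and MCOLN1) and 2 were not called (CD63 and CTSF). Of the 5 with the longer TCACGTGA, GAA and MCOLN1 were higher and CTSA, GALNS and LAMP1 lower. MCOLN1 and GAA each held the longer form at 2 places within the last 77 bases before the start site, and LAMP1 also held it at 2 places, the second across the start site, downstream of 4 copies of the shorter core. A match is a run of letters and was not tested for binding. For 11 members, among them CTSS, LAMP2, CTSB and PSAP, no window was at hand.

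**Figure D4:**
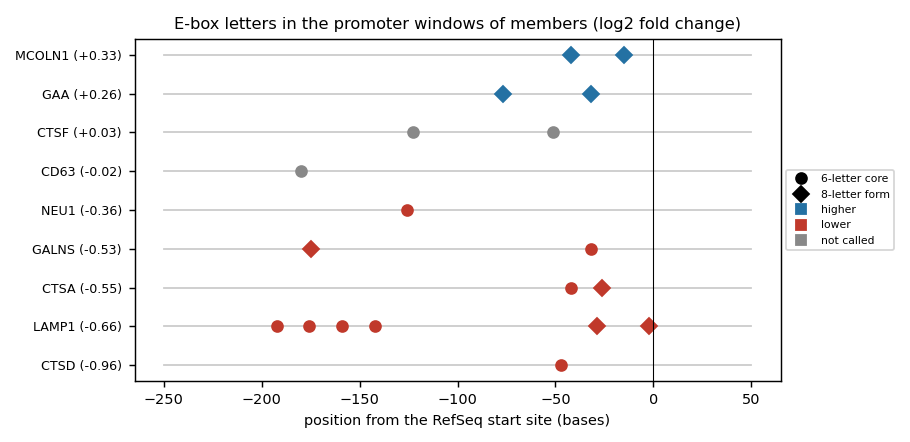
First base of each CACGTG (circle) or TCACGTGA (diamond) in the promoter windows of the 9 members that held one, in bases from the RefSeq start site (0), sorted by log2 fold change, which is given beside the name; blue marks members higher, red lower and grey not called in RBFOX1. LAMP1 has 6 sites and a log2 fold change of -0.66, and GAA and MCOLN1, both higher, have 2 sites each.

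TGCATG in the 3′ UTR likewise appeared in members of each direction, in 10 of the 28 lower, 2 of the 5 higher (MITF and GAA) and 1 of the 8 not called (CD63). CTSS had 3 sites in 2858 bases, and LAMP2 and IDS had 2 each in 5175 and 5758 bases. TPP1 and LIPA, which with CTSS fell most, held none in 1778 and 1256 bases. Of the 28 lower members 35.7% held a site, beside 36.5% of all protein-coding genes tested. The median 3′ UTR was 748 bases long in the members and 1298 in all protein-coding genes tested, and longer UTRs have more room for a match. By call, the median was 1213.5 bases in the members lower, 591 in those higher and 489.5 in those not called.

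The wider pathway was described with 142 further genes in 8 lists, of which 132 could be tested. Of these, 70 were lower (53.0%) and 28 higher (21.2%), with a median log2 fold change of -0.23. Of all genes tested, which include many scarce ones, 22.9% were lower and 23.7% higher. The share called higher was near that of all genes tested, but not near that of genes at a matching level, given at the end of this paragraph. Like the members, the lists were chosen with earlier results of these data known. Without GFP replicate 1, 63 of the pathway genes were lower and 28 higher. Those lower included 11 hydrolases, 12 membrane proteins and transporters, 10 V-ATPase subunits, 8 sorting genes, 9 nutrient-sensing genes and 9 autophagy genes. Among the 109 genes with a mean normalised count of at least 50, a restriction chosen after seeing the data, 64 were lower and 20 higher. Among all genes at that level 33.4% were lower and 30.4% higher, so the listed genes had a larger share lower and a smaller share higher. These 2 shares are the closer background for the lists below whose genes mostly lie above that mean.

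Of 24 other lysosomal hydrolases 23 were tested, and 12 were lower (52.2%) and 3 higher (13.0%), with a median of -0.29. SCPEP1, a serine carboxypeptidase, had 2645, 2338 and 2422 in GFP and 1028, 1068 and 1030 in RBFOX1 libraries (-1.25, edgeR adjusted p = 4.22e-13), and NAAA, an amidase of N-acylethanolamines, fell by 0.95 on the log2 scale from much lower levels of 86.4 to 108 in GFP libraries. Against this direction, CTSV, a close relative of CTSL, rose from 75.9, 91.1 and 75.9 to 368, 459 and 377 (2.33 ± 0.113, edgeR adjusted p = 1.04e-12), and ACP5, the tartrate-resistant acid phosphatase of osteoclasts, from 197, 190 and 151 to 434, 393 and 365 (1.12). CTSL and CTSV thus moved in opposite directions.

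Of 25 other membrane proteins and transporters, 14 were lower (56.0%) and 6 higher (24.0%), with a median of -0.38. SLC17A5, the sialic acid exporter sialin, had 911, 881 and 810 in GFP and 250, 240 and 226 in RBFOX1 libraries (-1.87 ± 0.0762, edgeR adjusted p = 7.33e-14), a steeper fall than in any of the members. SLC38A9, the arginine sensor that signals to mTORC1, had a log2 fold change of -0.92, while LAPTM4A, with 2754, 3270 and 3238 in GFP and 6657, 7133 and 6837 in RBFOX1 libraries, rose by 1.16 and SIDT2 by 0.91 on the same scale.

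Of 25 V-ATPase subunits 11 were lower and 8 higher, with a median of -0.02. Of the 8, ATP6V0A4, ATP6V1B1, ATP6V1C2, ATP6V1G2 and ATP6V1G3 were scarce, with mean normalised counts of 8.56 to 22.6. Among the 18 subunits with a mean of at least 50, 10 were lower and 3 higher, with a median of -0.20, beside 33.4% lower and 30.4% higher among all genes at that level. The genes named by the rule were all lower, namely ATP6V0E1 (-0.73), the catalytic subunit gene ATP6V1A (-0.57), ATP6AP2 (-0.55) and ATP6V1H (-0.55), with mean normalised counts from 994 to 3027 over the 6 libraries. The number of subunits called higher depended on the settings, at 4 in DESeq2, 7 without GFP replicate 1 and 5 to 7 when a library was left out, the 5 without GFP replicate 2 or without RBFOX1 replicate 1.

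The machinery that tags and delivers hydrolases was lower in most of its genes. Of 11 genes 8 were lower (72.7%) and 2 higher (18.2%), with a median of -0.56. NAGPA, which uncovers the mannose 6-phosphate tag, had 422, 376 and 368 in GFP and 230, 228 and 202 in RBFOX1 libraries (-0.84, edgeR adjusted p = 1.27e-07). SUMF1, which activates the sulfatases, had a log2 fold change of -0.71, GNPTG, a subunit of the tagging transferase, of -0.63, and the cation-dependent receptor M6PR of -0.63. The adaptor GGA2 was among the 2 that were higher (0.50), with GGA3 (0.23). Without GFP replicate 2 or RBFOX1 replicate 1, 1 of this list was called higher.

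Of 18 tested genes for nutrient sensing upstream of TFEB, 10 were lower (55.6%) and 3 higher (16.7%), with a median of -0.19. The folliculin partners moved in opposite directions, with FNIP2 at 252, 228 and 268 in GFP and 606, 646 and 608 in RBFOX1 libraries (1.31 ± 0.0768, edgeR adjusted p = 1.97e-11) and FNIP1 at 1526, 1605 and 1553 against 952, 1001 and 983 (-0.67 ± 0.0536, edgeR adjusted p = 2.38e-09). RRAGD, a Rag GTPase, was lower (-0.73), as was LAMTOR3 of the Ragulator complex (-0.44).

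Of 18 autophagy genes, 11 were lower (61.1%) and 3 higher (16.7%), with a median of -0.25. SQSTM1, the cargo receptor p62, was by far the most abundant of the named genes, with 94196, 88946 and 85995 in GFP and 31550, 32780 and 33054 in RBFOX1 libraries (-1.47 ± 0.0489, edgeR adjusted p = 4.01e-15). WIPI1, which marks early autophagosomal membranes, had 1101, 1084 and 1084 in GFP and 535, 556 and 529 in RBFOX1 libraries (-1.01). ATG7 (-0.74) and VPS11 (-0.44) were also lower, and the 3 that were higher, ULK1, MAP1LC3A and ATG9A, changed by 0.21 to 0.35.

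**Figure D5:**
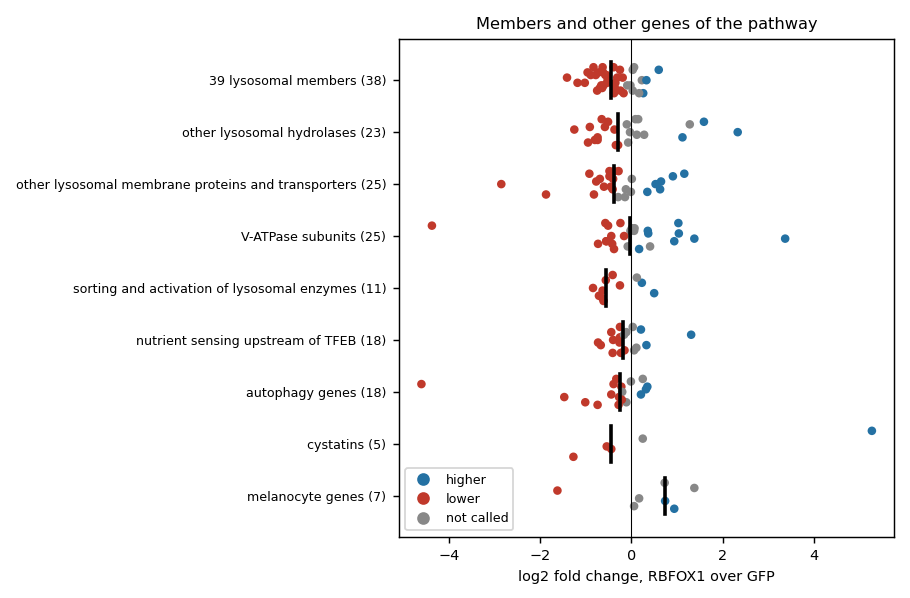
Log2 fold change (RBFOX1 over GFP) of each tested gene in the lysosomal members and in the 8 pathway lists, with the number tested in parentheses; blue points are higher, red lower and grey not called, and black bars are medians. The medians run from -0.56 for sorting and activation to 0.73 for the melanocyte genes, and the outlying points of LAMP3, ATP6V0D2, ATP6V1C2, ATG9B and CST1 belong to genes with mean normalised counts of at most 24.8.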

How the data were processed

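The 6 libraries (3 GFP, 3 RBFOX1) were grouped by their titles. The authors aligned read pairs with HISAT2 (GRCh38) and made gene counts with HTSeq-count on Ensembl v87 (intersection-strict, reverse strand), deposited without normalization, of which 5 lines per file name no gene and were left out (38.1 to 48.0% of read pairs). A deposited table of the authors' DESeq2 comparison was not used. The members and lists were chosen with earlier results of these data known.

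After TMM scaling, the quasi-likelihood test of edgeR (4.0.16, limma 3.58.1, R 4.3.3; two-sided, condition only) was used, with Benjamini-Hochberg adjustment over the 20536 genes with at least 10 summed counts and a threshold of 0.05. Normalised counts are counts scaled to a common effective library size. The procedure was tested on simulated data with 200 changed genes and a single dispersion shared by all genes. There edgeR recovered 160 of the changes at 1.5-fold (3 false calls) and 190 at 2-fold (14 false calls). In the real data 9580 genes were called, so the simulation does not match that setting. RefSeq windows and GENCODE release 44 gave sequences, symbols and lengths, and 98.1% of gene identifiers matched. All members were named, with per-library values for the largest changes and the factors, and from each pathway list up to 4 called genes with the largest change, a mean of at least 50 and no overlap. GGA2, GGA3, the scarce V-ATPase subunits, ULK1, MAP1LC3A, ATG9A and the low-count genes were named after their values were seen. DESeq2 (1.42.0), limma-voom, other scalings and filters, a replicate block, a threshold of 0.01 and the omission of each library were run as alternatives, and counts among genes with a mean of at least 50 were added after seeing the data. Whether the replicates came from separate infections is not given beyond the study's term biological replicates. The p-values set the difference between the groups against the spread among the libraries within each group. If the libraries of a line share a single infection, differences between infections are not in that spread.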

Additional observations from a re-analysis of the deposited data

How the results depend on the processing

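Under the alternatives, 26 to 28 members were lower and 4 to 6 higher, and 34 of 41 members kept their direction and side of the threshold in every one. The median of the members moved from -0.376 to -0.324 with library totals only, and lay between -0.392 and -0.358 when each library was left out. With a library left out, CTSF ranged from -0.107 (without GFP replicate 3; -0.0238 without RBFOX1 replicate 3) to 0.127, GUSB from -0.0621 (without GFP replicate 1) to 0.0742 and CD63 from -0.0683 to 0.0485 (without RBFOX1 replicate 1), and CD63 was 0.0299 with library totals. None of these values was called. At a threshold of 0.01 the calls of NAGLU, SMPD1 and MCOLN1 were lost. Of the pathway counts, subunits of the V-ATPase called higher (8) were 4 in DESeq2, 5 at a threshold of 0.01, 3 among genes with a mean of at least 50 and 5 to 7 with a library left out. Sorting genes called higher (2) were 1 in DESeq2, 1 at 0.01 and 1 to 3 with a library left out, cystatins called higher (1) were 2 in DESeq2, 3 with no filter, 0 at 50 or more summed counts, 0 among genes with a mean of at least 50 and 0 to 1 with a library left out, and melanocyte genes called higher (2) were 1 in DESeq2, 1 among genes with a mean of at least 50 and 2 to 3 with a library left out (3 without GFP replicate 1). The melanocyte gene called lower (1) has a mean under 50, which leaves 0. The restriction to a mean of at least 50 was chosen after seeing the data. The cause of the other changes was not tested.

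With the replicate number as a block, 9046 genes were called in place of 9580, and among the members the block changed only the call of MCOLN1 (0.312, edgeR adjusted p = 0.053). Same-numbered libraries deviated from their group means with correlations of -0.266, 0.0564 and -0.190. Those of differently numbered libraries ran from -0.315 to 0.331. With 3 libraries per group, these values cannot tell whether same-numbered samples share more than a number. In the shallowest library 3 counts were worth 5.44 normalised counts, which limits the low-count genes of the lists.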

Other observations

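Cystatins, the inhibitors of the cysteine cathepsins, were mostly lower where they were abundant. CST3, the secreted cystatin C, had normalised counts of 1924, 1817 and 1977 in GFP and 1310, 1480 and 1421 in RBFOX1 libraries (-0.44, edgeR adjusted p = 1.86e-06), and CSTB, the cytosolic stefin B, 3523, 4224 and 4133 in GFP and 2697, 2698 and 2759 in RBFOX1 libraries (-0.54, edgeR adjusted p = 2.5e-07). Of the 9 cystatins 5 were tested, with 3 lower and 1 higher, beside 22.9% lower and 23.7% higher of all genes tested. The one called higher, CST1, was at 0 in the GFP libraries and at 3.63, 4.44 and 5.48 normalised counts in the RBFOX1 libraries, near the level that a count of 0 allows.

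Melanocyte genes, for which MITF is best known, were mostly scarce in these cells. Of 11 such genes 7 were tested, with 2 higher and 1 lower beside 46.6% of all genes called in either direction, and 6 of the 7 had a positive log2 fold change (median 0.73). Without GFP replicate 1, 3 were higher. Of the 3 with a mean normalised count of at least 50, 1 was called, and it was higher. GPNMB, a glycoprotein of melanosomes and lysosomes, had 2701, 2791 and 2633 in GFP and 4529, 4715 and 4331 in RBFOX1 libraries (0.74 ± 0.0492, edgeR adjusted p = 1.38e-10), and the scarce PMEL was also higher (0.94, edgeR adjusted p = 0.00567). TYR, which encodes tyrosinase, was at 0 in every library, TYRP1 was not called (0.06, edgeR adjusted p = 0.796), and the pigment-cell receptor GPR143 was lower (-1.62, edgeR adjusted p = 9.44e-06).

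Genes beside GALC on chromosome 14 gave mixed counts. KCNK10 was at 0 in all 6 libraries and GPR65 had 0, 0 and 0 counts in GFP and 1, 0 and 1 in RBFOX1 libraries, while SPATA7 had 371, 175 and 184 counts in GFP and 96, 123 and 146 in RBFOX1 libraries. These 3 genes were chosen after the counts of GALC had been seen. Why GALC was at 0 was not tested, and counts of neighbours that such cells may not express cannot tell.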
